A study of Mus musculus with 7 samples.

Results

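The genes Cdkn2a, Cdkn2b, Cdkn1a, Trp53, Mdm2, Rb1, Cdk4, Cdk6, Ccnd1 and Ccnd2 were described in mouse brain tumours profiled by droplet single-cell RNA sequencing. They were taken by symbol from the 32285 genes of the deposited matrices, and all 10 were found. Each was followed in tumour cells and in the host cells around them, in cycling and non-cycling cells, and across treatments. The series asked how glioblastoma models and their immune surroundings respond to immunotherapy. The tumours came from NSCG-mCherry, a mouse glioma line labelled EGFRvIII+ and Arf/Ink4a-/-, that is, with an active mutant of the EGF receptor and without the Arf and Ink4a products of Cdkn2a. All groups carried this line and were grown in C57BL/6 hosts aged 7 to 10 weeks, whose genotype is given as WT.

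There were 5 groups in 7 libraries. UT was untreated (1 library). IgG received an IgG2b isotype control antibody at 10 mg/kg (2 libraries). BP received 5 mg/kg of B20, which blocks VEGF, together with 10 mg/kg of anti-PD-L1 (2 libraries). BPI received the BP antibodies with the oral compound IPI-145 at 10 mg/kg (1 library), and CD40 received an agonist antibody against CD40 at 100 µg per dose for 2 doses (1 library). The labels leave it unclear whether a DC vaccine accompanied the CD40 antibody. Tumours were taken at about day 14, and each library pooled at least 2 mice, so variation between mice was not measured and p-values rest on the spread between pooled libraries.

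As background, Cdkn2a makes a pair of unrelated proteins from alternative first exons. Ink4a binds Cdk4 and Cdk6 and keeps them from pairing with D cyclins, and Cdkn2b, its neighbour, makes the related inhibitor Ink4b. Arf binds Mdm2, the ubiquitin ligase that destroys p53, so that p53 (Trp53) accumulates. Cdkn1a (p21), a p53 target, inhibits cyclin-dependent kinases, while D cyclins with Cdk4 or Cdk6 phosphorylate Rb (Rb1) and release E2F factors that drive S-phase genes. Loss of this locus is among the most frequent alterations of human glioblastoma.

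The structure of Cdkn2a limits what its counts can show. The gene lies on chromosome 4 of GRCm38 from 89274471 to 89294653, on the minus strand. In the GENCODE annotation, transcript Cdkn2a-202 starts with a first exon at 89294334 to 89294653, and transcript Cdkn2a-201 starts downstream with a first exon at 89281986 to 89282192. Both then use exon 2 at 89276645 to 89276985 and a last exon ending at 89274774 on its 5′ side. The 3′ counts of the kit therefore cannot tell the products apart, and the labels do not say which exons the line lacks, so a Cdkn2a count is no check of the deletion.

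The stretches before the starts of Cdkn2a, and of the p53-linked genes Mdm2 and Cdkn1a, which shared a direction with cycling state below, are shown from RefSeq (GRCm38.p6). They are printed 5′ to 3′ on the gene's own strand, up to the first annotated exon base. In the Cdkn2a lines, capitals mark matches to the E2F words TTTCCCGC, TTTCGCGC, TTTGCCGC and TTTGGCGC and to the GC box GGGCGG, searched on both strands. In the other lines, capitals mark matches to the p53 half-site, which reads the same on both strands.
Cdkn2a, upstream start, minus strand, chr4:89294654-89294869: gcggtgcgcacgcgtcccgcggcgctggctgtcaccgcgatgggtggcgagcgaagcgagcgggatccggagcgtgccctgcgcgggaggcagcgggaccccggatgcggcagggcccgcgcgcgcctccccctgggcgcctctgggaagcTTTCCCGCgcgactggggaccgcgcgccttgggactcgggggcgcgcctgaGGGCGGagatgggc
Cdkn2a, downstream start, minus strand, chr4:89282193-89282442: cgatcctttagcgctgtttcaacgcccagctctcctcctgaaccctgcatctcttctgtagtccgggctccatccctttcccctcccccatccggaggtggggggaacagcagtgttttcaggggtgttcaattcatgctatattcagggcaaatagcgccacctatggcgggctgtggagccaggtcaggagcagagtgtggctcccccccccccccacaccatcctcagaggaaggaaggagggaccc
Mdm2, minus strand, chr10:117710759-117711008: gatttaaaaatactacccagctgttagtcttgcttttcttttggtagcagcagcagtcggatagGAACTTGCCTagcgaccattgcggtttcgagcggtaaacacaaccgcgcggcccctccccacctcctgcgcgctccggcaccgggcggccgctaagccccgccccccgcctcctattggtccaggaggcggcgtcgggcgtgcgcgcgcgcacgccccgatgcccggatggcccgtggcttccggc
Cdkn1a, plus strand, chr17:29090729-29090975: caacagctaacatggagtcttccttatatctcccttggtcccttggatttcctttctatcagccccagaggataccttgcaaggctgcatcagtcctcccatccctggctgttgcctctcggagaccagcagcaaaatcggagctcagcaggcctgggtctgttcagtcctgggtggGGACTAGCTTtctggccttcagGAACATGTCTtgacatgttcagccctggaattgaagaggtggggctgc
Over 250 bases before the start, the upstream Cdkn2a start held 1 E2F word and 2 GC boxes, of which 1 lies in the printed stretch, and the downstream start held neither. An E2F word occurred in 1.86% of 32851 promoters of that length, a GC box in 32.7% and a p53 half-site in 7.13%. Of 9 member promoters in the table, from 7 genes, 1 held an E2F word, 4 a GC box and 3 a p53 half-site, with 2 half-sites at Cdkn1a, 1 at Mdm2 and 1 at Trp53. These matches are descriptions of the letters only.

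The data held 48588 cells once 3207 doublets were taken out, with 68997476 to 186793886 unique molecular identifiers (UMIs) in all per library. Clusters were named "X-like" from marker genes, giving 30880 tumour-like cells (2602 to 5837 per library), 11072 cells in host classes and 6636 unnamed cells, which entered no comparison. All 12 tumour markers had at least 1 UMI in the tumour-like cells of each library, which some libraries of host classes reached as well. Their summed level in tumour-like cells was 903 to 2033 CPM. CPM is the count per 1000000 UMIs of a class in a library. Microglia-like cells had 355 to 1479 CPM of the same 12, so this sum does not set the classes apart. Most of it there was Cd9, a tetraspanin gene, at 296 to 1400 CPM in microglia-like and 133 to 360 CPM in tumour-like cells. Without Cd9 the other 11 markers summed to 754 to 1778 CPM in tumour-like, 57.0 to 113 CPM in microglia-like, 44.0 to 115 CPM in monocyte/macrophage-like and 29.5 to 56.7 CPM in T-like cells. Of these 11, Ptprz1, Fabp7 and Cspg5 went down to 0.30, 0.82 and 2.50 CPM in tumour-like cells of some library. Their monocyte/macrophage-like medians were higher, at 2.04, 7.10 and 2.89 CPM. The rest of the 11 stayed above such medians in tumour-like cells of every library. The 7 libraries shared 0 to 27 cell barcodes in any pair. The labels give 1 kit chemistry for all samples, yet in UT barcodes came from another barcode list than in the other 6 libraries. A difference tied to that list and the lack of treatment cannot be told apart in UT. Because classes were built by clustering these cells, tumour-like and host levels are given as descriptions without a test. Orders of classes hold among the 6 classes with 20 cells in at least 5 libraries. Classes seen in 1 to 3 libraries lie outside these orders and are named only for Cdkn2b, Ccnd1 and Ccnd2.

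Cdkn2a transcripts were present in tumour-like cells of every library of the line labelled Arf/Ink4a-/-. The level was 155 CPM in UT, 193 (replicate 1) and 156 CPM (replicate 2) in IgG, 170 (replicate 1) and 197 CPM (replicate 2) in BP, 187 CPM in BPI and 173 CPM in CD40. No library of any host class compared reached these values. The host medians were 16.5 CPM in microglia-like, 10.4 CPM in endothelial-like, 5.43 CPM in T-like, 5.01 CPM in monocyte/macrophage-like and 1.23 CPM in NK-like cells, and each of these neighbouring ranges overlapped. Against all host cells of the same library pooled, the tumour-like level was 7.38-fold (IgG replicate 1) to 28.5-fold (UT) higher. Among non-cycling cells alone, as defined below by Top2a and Mki67, it was 48.9- to 69.4-fold higher, with pooled host cells at 2.52 to 4.18 CPM. Over all cells, with each cell weighted equally in place of summed counts, it was 16.5- to 37.1-fold higher. The make-up of pooled host cells differed between libraries. Microglia-like cells were 139 of 331 host cells in IgG replicate 1 and 52 of 1189 in UT. Cdkn2a transcripts were found in most single tumour-like cells, since 80.9% (BPI) to 89.8% (BP replicate 1) had at least 1 UMI. At an equal depth of 2000 UMIs per cell the share was 25.6% to 31.7%. In T-like cells it was 1.60% to 4.09%, and 0% to 3.45% at that equal depth, where median depths before thinning were 2403 to 6066 UMIs in T-like and 10585 to 21865 UMIs in tumour-like cells.

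Free RNA was measured beside these values. Empty droplets held Cdkn2a at 28.1 to 77.5 CPM, and the free RNA estimated for each class would give 2.48 to 4.51 CPM in T-like, 3.38 to 6.06 CPM in monocyte/macrophage-like and 2.63 to 11.6 CPM in microglia-like cells. The highest host value was in microglia-like cells of IgG replicate 1, where 22 UMIs gave 28.9 CPM (exact 95% Poisson interval 18.1 to 43.8) and free RNA would give 11.6 CPM. The highest values in T-like and monocyte/macrophage-like cells came from the same library, on 2 UMIs (16.0 CPM, 1.93 to 57.6) and 11 UMIs (17.7 CPM, 8.83 to 31.7). In microglia-like cells of BP replicate 1, 60 UMIs gave 16.5 CPM (12.6 to 21.3), where free RNA would give 2.63 CPM. The mean log2 difference from pooled host cells was 3.62 for Cdkn2a, taken here and below after adding 5 CPM to both levels. The added 5 CPM makes it smaller than the folds alone would give. With doublets kept the difference was 2.71. With free RNA subtracted it was 4.57, where pooled host cells had 0 to 18.5 CPM and the value depends on the added 5 CPM.

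**Figure D1:**
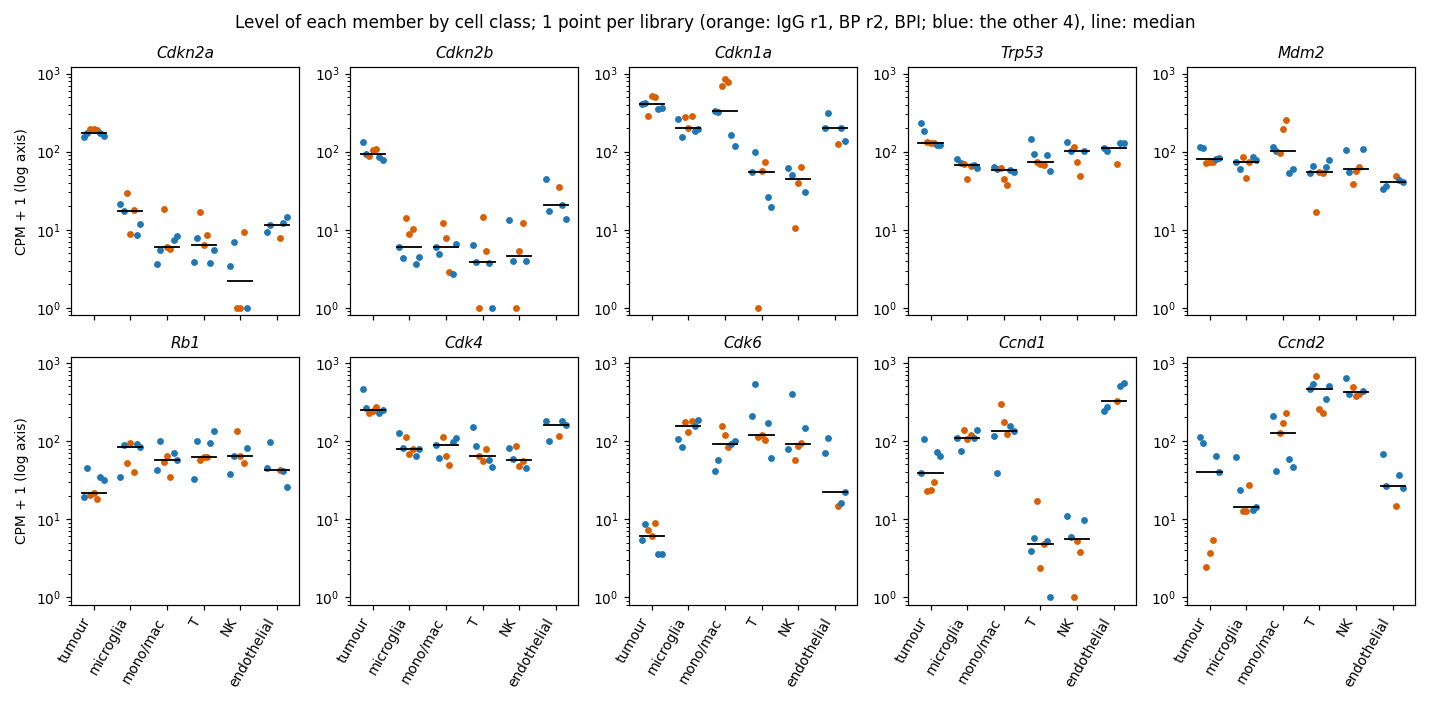
Level of each member (CPM + 1, log axis) in 6 cell classes, with 1 point per library of at least 20 cells and a line at the median; orange points are IgG replicate 1, BP replicate 2 and BPI. Cdkn2a, Cdkn2b and Cdk4 are highest in tumour-like cells, and Cdk6 is lowest there.

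Cdkn2b was also highest in tumour-like cells. It was at 130.5 CPM in UT, 87.7 and 77.7 CPM in the IgG libraries, 92.0 and 103 CPM in the BP libraries, 108 CPM in BPI and 84.4 CPM in CD40. The next of the 6 classes, endothelial-like cells, had 12.7 to 43.5 CPM and lay apart from this range. Outside the 6, dendritic-like cells had 7.17 and 67.8 CPM in 2 libraries, and mast or basophil-like cells 36.5 CPM in 1 library. In microglia-like, monocyte/macrophage-like, T-like and NK-like cells all values were at or below 13.6 CPM and overlapped. The mean log2 difference from pooled host cells was 3.04. It was 2.49 with doublets kept, 3.66 among non-cycling cells and 4.35 with free RNA subtracted.

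Transcripts of the genes around the locus were counted as well. Of 39 protein-coding genes annotated within 1 Mb of Cdkn2a, 5 had a median of at least 5 CPM in tumour-like cells and 33 were under 1 CPM. Those over 5 CPM were Cdkn2b, 11.6 kb away, Mtap (58.7 to 94.3 CPM), which encodes an enzyme of methionine salvage and lies 93.4 kb away, Dmrta1 (0.988 to 7.01 CPM), Klhl9 (19.3 to 40.8 CPM) and Focad (15.8 to 39.4 CPM). Most of the genes under 1 CPM are type I interferon genes. The median of Mtap over libraries was 69.8 CPM in tumour-like cells and 20.7 to 32.6 CPM in the host classes with the most cells (monocyte/macrophage-like, microglia-like and T-like).

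The kinases of the RB pathway showed opposite orders. Cdk4, the kinase that pairs with D cyclins, was at 461 CPM in UT tumour-like cells and at 227 to 274 CPM in the other 6 libraries. Endothelial-like cells followed with 98.2 to 179 CPM, apart from the tumour-like range. Against pooled host cells the median fold was 3.85, and 4.61 with free RNA subtracted. The mean log2 difference, with 5 CPM added to both levels, was 1.66, and 2.49 with free RNA subtracted. In the latter the lowest pooled host level was 0 CPM, so the mean depends on the added 5 CPM. Cdk6, its close relative, had 2.51 to 7.80 CPM in tumour-like cells, the lowest of the 6 classes and apart from the class above it. Its host medians were 154 CPM in microglia-like, 117 CPM in T-like, 91.8 CPM in monocyte/macrophage-like, 89.3 CPM in NK-like and 21.3 CPM in endothelial-like cells, with overlapping ranges. Pooled host cells had 12.2-fold (BPI) to 51.5-fold (IgG replicate 2) more Cdk6 than tumour-like cells of the same library, and 14.6- to 209-fold more with free RNA subtracted. There the share estimated in host cells was also taken off tumour-like cells, which left them 0.562 to 7.58 CPM. Empty droplets held Cdk6 at 8.76 to 54.6 CPM, above the tumour-like level in each library.

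Rb1, which encodes the Rb protein itself, was lower in tumour-like than in pooled host cells in 7 of 7 libraries, by 2.13- to 3.38-fold. Its tumour-like level was 18.0 CPM in UT, 19.5 and 30.6 CPM in the IgG libraries, 44.3 and 20.6 CPM in the BP libraries, 17.3 CPM in BPI and 33.8 CPM in CD40. Across libraries this range overlapped those of the host classes, so the difference shows only within libraries.

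The D cyclins divided by cell type. Among the 6 classes Ccnd2 (cyclin D2) was highest in lymphocytes, at 230 to 670 CPM in T-like and 380 to 633 CPM in NK-like cells, which overlapped. Within that range lay dendritic-like cells (478 and 595 CPM in 2 libraries), mast or basophil-like cells (504 CPM) and ependymal-like cells (450.5 CPM, each in 1 library). Monocyte/macrophage-like cells lay below, at 40.7 to 228 CPM. Ccnd1 (cyclin D1) was nearly absent from the same lymphocytes, with 0 to 16.0 CPM in T-like and 0 to 9.82 CPM in NK-like cells. It was highest in endothelial-like cells, at 241 to 551 CPM, followed among the 6 classes by monocyte/macrophage-like and microglia-like cells with overlapping ranges. Plasmacytoid dendritic-like cells had 194 to 253 CPM in 3 libraries and mural-like cells 119 and 181 CPM in 2 libraries, with medians above those of both myeloid classes. Tumour-like cells were in the middle of both orders, and pooled host cells exceeded them for Ccnd2 in 7 of 7 libraries and for Ccnd1 in 6 of 7, the exception being BP replicate 1. Among non-cycling cells alone this was so in 5 of 7 libraries for each gene.

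On the p53 side, Trp53 itself was higher in tumour-like than in pooled host cells in 7 of 7 libraries, by 1.69- to 2.77-fold. Its tumour-like level was 236 CPM in UT, 181 CPM in BP replicate 1 and 121 to 131 CPM in the other 5 libraries. Across libraries this range overlapped those of endothelial-like, NK-like and T-like cells. It lay above those of microglia-like and monocyte/macrophage-like cells. Mdm2 showed no steady direction within libraries, being higher in tumour-like than in pooled host cells in 4 of 7 (2 of 7 among non-cycling cells). Its highest values were in monocyte/macrophage-like cells of BPI (254 CPM) and BP replicate 2 (192 CPM). Cdkn1a was higher in tumour-like than in pooled host cells in 6 of 7 libraries, in 4 of 7 among non-cycling cells alone, and in 7 of 7 with each cell weighted equally. It had 281 to 510.1 CPM in tumour-like cells and 117 to 847 CPM in monocyte/macrophage-like cells, which overlapped, while T-like (0 to 98.6 CPM) and NK-like cells (9.40 to 62.6 CPM) lay apart from the classes above them.

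Counted over libraries, 5 of 10 members had no overlap between tumour-like and monocyte/macrophage-like cells, against 48.5% of 11985 genes with at least 5 CPM in either class. For microglia-like cells it was 5 of 10 against 42.8%, and for T-like cells 7 of 10 against 39.5%. Cdkn2a, Cdkn2b and Cdk4 were higher, and Cdk6 lower, in each of the 3 comparisons. The first 2 shares were near those of all genes, and the third, with 5 members higher and 2 lower than in T-like cells, was above it.

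Within tumour-like cells the members differed widely in how much they varied between libraries. Cdkn2a spanned 155 to 197 CPM and Ccnd2 spanned 1.45 to 113 CPM. Ccnd2 had 1.45, 2.62 and 4.46 CPM in IgG replicate 1, BP replicate 2 and BPI, and 38.7, 62.4, 94.4 and 113 CPM in IgG replicate 2, CD40, BP replicate 1 and UT. The 3 low libraries cut across control and treatment. They carry consecutive library numbers, and these numbers define the library set that is compared and used as a term below. The comparisons were chosen with earlier results of these data known, and the cause of the split was not tested. Ccnd1 was split the same way, at 21.8 to 29.2 CPM in these 3 libraries and 37.8 to 106 CPM in the other 4.

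Those 3 libraries also had lower Mdm2 (69.7 to 73.3 CPM against 79.4 to 115 CPM) and higher Cdkn2a (187 to 197 CPM against 155 to 173 CPM) in tumour-like cells. With 4 of 10 members not overlapping, against 41% of 11291 genes in tumour-like cells, the members were no different from genes at large. In monocyte/macrophage-like cells 1 of 10 members did not overlap, against 11.5% of 10214 genes. That member was Cdkn1a, at 684 to 847 CPM in the 3 libraries and 117 to 330 CPM in the others. In microglia-like cells it was 1 of 10 against 10.4% of 10932 genes. That member was Cdkn2b, at 13.1, 7.89 and 9.24 CPM on 10, 4 and 6 UMIs in IgG replicate 1, BP replicate 2 and BPI, and at 2.62 to 5.05 CPM in the others. Free RNA was estimated at 16.2% to 22.0% of the microglia-like UMIs in these 3 libraries and 4.36% to 7.30% in the others, and would give 17.0, 14.3 and 10.1 CPM of Cdkn2b in the 3, above each measured level. None of the members did so in T-like cells, where 8.27% of 10228 genes had no overlap, and Ccnd2 itself had 230 to 670 CPM and 343 to 531 CPM there.

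**Figure D2:**
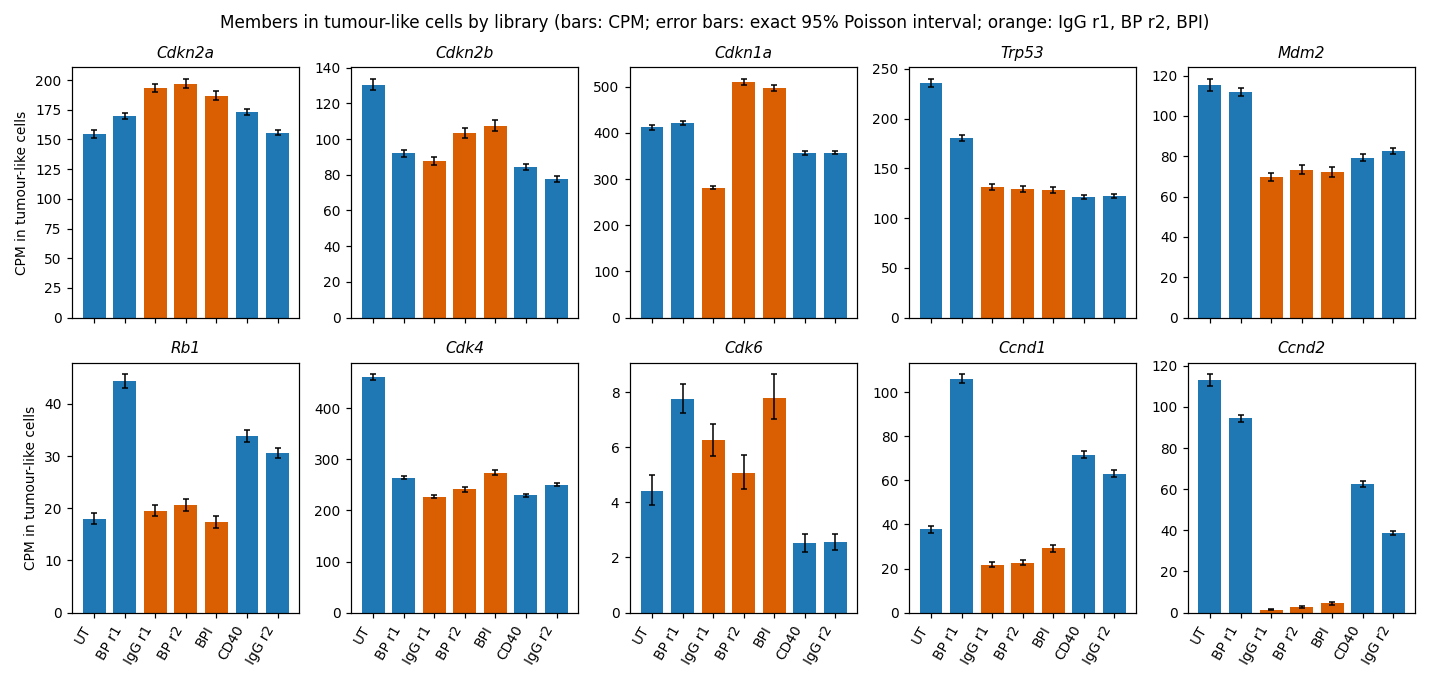
Level of each member (CPM) in the tumour-like cells, library by library, in the order of their library numbers; error bars are exact 95% Poisson intervals and cover counting error only. The orange libraries (IgG replicate 1, BP replicate 2 and BPI) have Ccnd2 at 1.45 to 4.46 CPM, against 38.7 to 113 CPM in the others.

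Tumour-like cells fell into 11 clusters, built without the members. Over these clusters Cdkn2a ranged from 147 to 203 CPM, so no tumour-like cluster was without it, and Cdk6 stayed at 1.80 to 8.99 CPM. Cluster 29, singled out after its values were seen, held 521 cells, 53.6% of them from CD40, and was led by Igfbp5 and Gfap. It had the highest Ccnd1 (289 CPM), Ccnd2 (172 CPM) and Cdkn2b (170 CPM) of the 11 clusters and the lowest Cdkn1a (170 CPM), Mdm2 (54.8 CPM) and Top2a (150 CPM). Since several clusters come nearly whole from 1 library, such as cluster 8 with 97.2% of BP replicate 1, cluster and library cannot be told apart for them.

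Cycling cells were defined by Top2a, a topoisomerase, and Mki67, the gene of the Ki-67 antigen, with at least 2 UMIs of the pair for cycling and 0 for non-cycling cells. Between 79.7% (UT) and 94.6% (IgG replicate 1) of tumour-like cells were cycling. Empty droplets held Top2a at 212 to 610 CPM and Mki67 at 49.0 to 181 CPM, and the part of free RNA in these shares was not tested. The 1219 non-cycling cells (82 to 274 per library) were shallower, with medians of 3205 to 12213 UMIs against 10959 to 22772. Depth therefore moves with the state. The tumour-like comparison was also made on cells thinned to 2000 UMIs, with the state set anew from the thinned counts. There 26.3% to 57.6% of the cells that reached this depth were cycling, and 8259 counted as non-cycling. Cells with Top2a or Mki67 UMIs at full depth can be among these, so the thinned fit is not the same contrast at equal depth. Counts were summed per library and state and tested with the edgeR quasi-likelihood test with the library as a block, adjusting p over all genes by Benjamini-Hochberg. At full depth 14.5% of 15090 genes were called (1475 higher and 714 lower in cycling cells; 895 and 1290 with DESeq2 size factors), and after thinning 21.5% of 11303. Without the library block the calls of Ccnd2, Cdkn1a, Cdkn2b and Mdm2 given here were lost. Of the members, 4 of 10 were called at full depth: 2 higher, as were 9.77% of genes, and 2 lower, as were 4.73%. After thinning 6 of 10 were called: 1 higher, as were 8.81% of genes, and 5 lower, as were 12.7%. The median change of the members was -0.02 and, thinned, -0.11, against 0.05 and -0.01 over all genes.

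Ccnd2 was lower in cycling tumour cells at both depths, and Ccnd1 passed the test after thinning. For Ccnd2, non-cycling and cycling cells had 141 and 109.7 CPM in UT, 194 and 56.4 CPM in CD40, and 12.6 and 4.24 CPM in BPI. In IgG they had 13.7 and 1.32 CPM (replicate 1) and 83.4 and 37.0 CPM (replicate 2), and in BP 108 and 94.3 CPM (replicate 1) and 3.17 and 2.56 CPM (replicate 2). It was thus lower in 7 of 7 libraries, with a log2 change of -1.03 ± 0.26 (SE; edgeR adjusted p = 0.0184) at full depth and -0.63 ± 0.10 (edgeR adjusted p = 6.94e-05) after thinning. Without IgG replicate 2 the full-depth change was -0.96 (edgeR adjusted p = 0.0578), and after thinning Ccnd2 was called with any single library left out. Ccnd1 had a log2 change of -0.70 ± 0.29 (edgeR adjusted p = 0.123) at full depth, -0.96 (edgeR adjusted p = 0.0301) without UT and -0.38 (edgeR adjusted p = 0.290) without CD40. After thinning it fell by 0.48 ± 0.11 (edgeR adjusted p = 0.00369), lower in 5 of 7 libraries, and without CD40 the thinned change was -0.28 (edgeR adjusted p = 0.0320). Markers of other cells moved with the state as well. The 10 monocyte/macrophage markers summed to 73.0 to 352 CPM in non-cycling and 79.0 to 222 CPM in cycling tumour-like cells, and were higher in non-cycling cells in 6 of 7 libraries, with 309 and 92.0 CPM in CD40, 204 and 93.3 CPM in IgG replicate 2 and 352 and 222 CPM in BP replicate 1. The 8 microglia markers were higher in non-cycling cells in 7 of 7 libraries (74.7 to 211 CPM against 73.4 to 159 CPM), and the 12 tumour markers in 5 of 7 (797 to 2594 CPM against 906 to 2023 CPM). Cluster 29, with the highest Ccnd1 and Ccnd2, also had the lowest Top2a. The part of such cells and of that cluster in the changes between states was not tested.

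Among the inhibitors, Cdkn1a was higher in cycling cells. Non-cycling and cycling cells had 395 and 415 CPM in UT, 197 and 363 CPM in CD40, and 408 and 505 CPM in BPI. In IgG they had 244 and 282 CPM (replicate 1) and 198 and 362 CPM (replicate 2), and in BP 319.9 and 422 CPM (replicate 1) and 409.5 and 515 CPM (replicate 2). The log2 change was 0.44 ± 0.09 (edgeR adjusted p = 0.00642), in 7 of 7 libraries. After thinning it was 0.17 ± 0.05 (edgeR adjusted p = 0.0186), in 6 of 7 libraries, and the call was lost without IgG replicate 2 (0.12, edgeR adjusted p = 0.110), BP replicate 2 (0.14, 0.0743) or BPI (0.16, 0.0561).

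Cdkn2b was lower in 7 of 7 libraries, at -0.45 ± 0.13 (edgeR adjusted p = 0.0374), and in 5 of 7 after thinning, at -0.17 ± 0.06 (edgeR adjusted p = 0.0438). At full depth that call was lost without IgG replicate 1 (-0.45, edgeR adjusted p = 0.0689), IgG replicate 2 (-0.40, 0.104) or BPI (-0.46, 0.0608), or without the filter on low counts (-0.35, 0.100), and after thinning it held only without IgG replicate 1 (-0.20, 0.0302) or BP replicate 2 (-0.20, 0.0341). Cdkn2a was not called at either depth: the full-depth change was -0.07 ± 0.08 (edgeR adjusted p = 0.609) and the thinned one 0.08 ± 0.04 (edgeR adjusted p = 0.228), higher in 7 of 7 libraries after thinning. Non-cycling tumour-like cells thus held Cdkn2a at 157 to 208 CPM and cycling ones at 154 to 197 CPM.

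**Figure D3:**
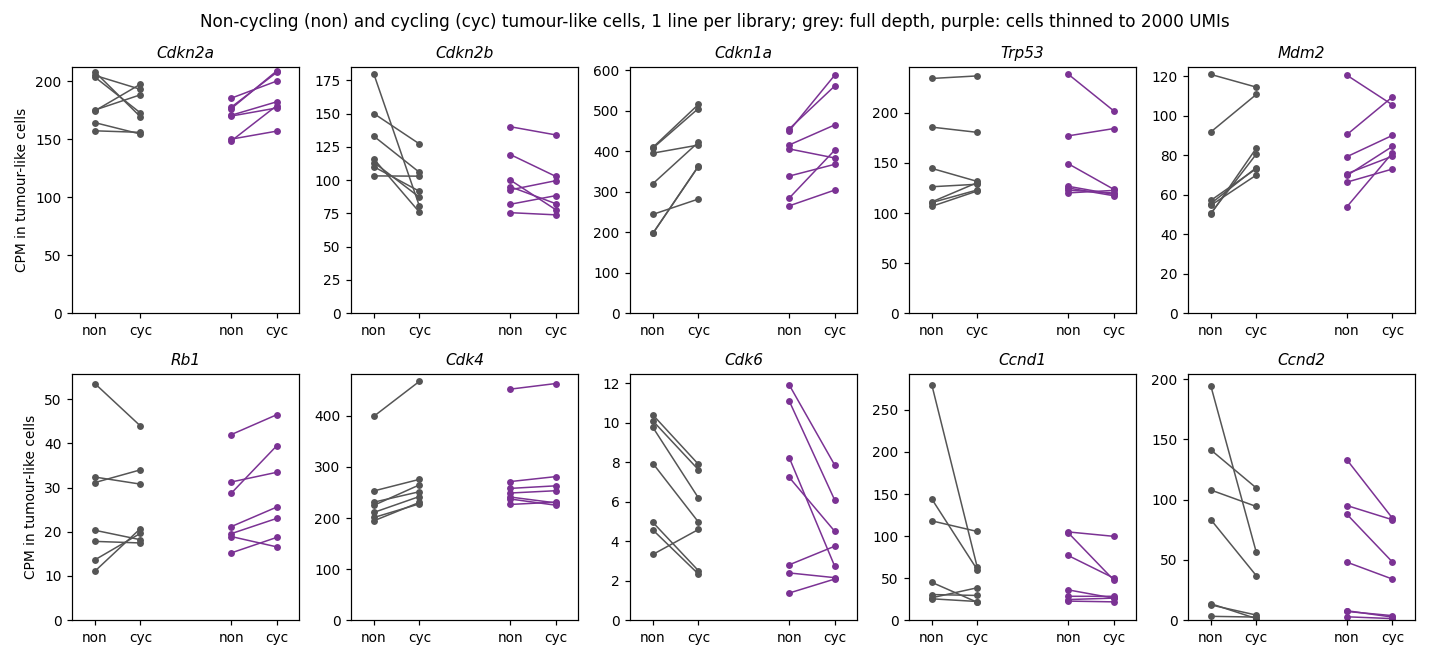
Level of each member (CPM) in non-cycling and cycling tumour-like cells, with 1 line per library, at full depth (grey) and with cells thinned to 2000 UMIs (purple). Lines of Ccnd2 fall in each library at both depths, and those of Cdkn1a rise in each library at full depth.

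Mdm2, the p53 ligase and itself a p53 target, rose in cycling tumour cells in 6 of 7 libraries, by 0.38 ± 0.09 on the log2 scale (edgeR adjusted p = 0.0125), the exception being UT (121 to 115 CPM). Without IgG replicate 2 the value was 0.33 (edgeR adjusted p = 0.0575), and with DESeq2 it was 0.28 (adjusted p = 0.0733). After thinning it was 0.14 ± 0.07 (edgeR adjusted p = 0.148), which passed only without UT (0.19, edgeR adjusted p = 0.0383). Trp53 was called only after thinning, at -0.15 ± 0.05 (edgeR adjusted p = 0.0377), against 0.06 ± 0.07 at full depth and 0.02 thinned to 5000 UMIs. These settings differ in depth and in which cells count as non-cycling (1219 at full depth and 8259 thinned to 2000 UMIs), and the parts of these were not tested. Its thinned call was lost without UT (-0.13, edgeR adjusted p = 0.0988), IgG replicate 1 (-0.12, 0.129), IgG replicate 2 (-0.15, 0.0852) or BP replicate 2 (-0.15, 0.0818).

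Of the kinases, Cdk4 was higher in cycling cells in 7 of 7 libraries at full depth, with a change of 0.19 ± 0.07 (edgeR adjusted p = 0.0936). It passed the test without the filter on low counts (0.28, edgeR adjusted p = 0.0282), and with DESeq2 it was 0.084 (adjusted p = 0.463). After thinning it was -0.06 ± 0.04 (edgeR adjusted p = 0.296). Cdk6 changed by -0.49 ± 0.23 (edgeR adjusted p = 0.179) and, thinned, by -0.69 ± 0.22 (edgeR adjusted p = 0.0269), on 102 and 117 UMIs over all libraries. That thinned call was lost without IgG replicate 1 (-0.67, edgeR adjusted p = 0.0571), BP replicate 1 (-0.62, 0.0946), BP replicate 2 (-0.54, 0.0944) or BPI (-0.69, 0.0692). Rb1 was not called, at 0.02 ± 0.12 (edgeR adjusted p = 0.948) and, thinned, 0.13 ± 0.09 (edgeR adjusted p = 0.326).

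Other genes of the pathways were counted by list in the same comparison, beside the shares of all genes given above (9.77% higher and 4.73% lower at full depth, 8.81% and 12.7% thinned). Of 21 RB pathway components, 12 were higher and 1 lower in cycling tumour cells at full depth, with a median log2 change of 0.49 (0.05 over all genes), and 11 were higher and 1 lower of 20 tested after thinning. The largest rises at full depth were in E2f8 (2.20), E2f7 (2.07) and Ccne1 (1.78), atypical E2F repressors and a cyclin of the G1/S step, and the fall was in the inhibitor Cdkn1c (-1.73). Of 25 p53 targets tested, 6 were higher at full depth, led by the mitotic genes Gtse1 (1.75) and Ckap2 (1.58). After thinning 6 were higher and 1 lower, with a list median of 0.04. Of 11 p53 regulators tested, 3 were higher at full depth, led by the checkpoint kinase Chek2 (1.61), and after thinning 4 were higher and 2 lower.

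E2F targets differed between the full-depth and the thinned comparison, which differ in depth and in the cells counted in each state. At full depth 19 of 28 were higher and 1 lower, with Ccna2 (3.26), Cdk1 (1.97) and Tk1 (1.86) leading. After thinning 6 were higher and 12 lower. The largest rises were in Ccna2 (1.56), Cdk1 (1.11) and Tk1 (0.51), and the largest falls in Ung (-1.06), Mcm3 (-0.60) and Mcm4 (-0.59). The lists were assembled with earlier results of these data known, and their counts are descriptions.

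Host T-like cells gave a second view of the cycling state. In the 5 libraries with 20 cells in each state, 34.7% of 6737 genes were called, and of the 7 members tested 2 were higher (17.5% of genes) and 1 lower (17.3% of genes) in cycling cells. Cycling T-like cells were also deeper, with medians of 5239 to 16314 UMIs in these libraries against 2204 to 4756 in non-cycling cells. Thinned to 2000 UMIs, 2 libraries (BP replicate 1 and BPI) kept 20 cells in each state, fewer than the 4 set as the minimum for this test, so values alone are given for them. Cdk4 rose from 91.0 to 241 CPM in UT, 48.6 to 141 CPM in BPI, 48.4 to 75.5 CPM in CD40, and in BP from 52.2 to 114 CPM (replicate 1) and 38.9 to 95.1 CPM (replicate 2). The log2 change was 1.22 ± 0.14 (edgeR adjusted p = 3.46e-07), in 5 of 5 libraries. Thinned to 2000 UMIs, Cdk4 went from 56.5 to 116 CPM in BP replicate 1 and from 42.0 to 90.9 CPM in BPI.

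Ccnd2 fell in cycling T-like cells as it did in tumour cells. It went from 627 to 181 CPM in UT, 305 to 80.9 CPM in BPI, 414 to 194 CPM in CD40, and in BP from 613 to 459 CPM (replicate 1) and 313 to 139.5 CPM (replicate 2). This was a log2 change of -1.26 ± 0.18 (edgeR adjusted p = 5.31e-06). Without the library block it was -1.16 (edgeR adjusted p = 0.0574). Thinned to 2000 UMIs, it went from 610 to 361 CPM in BP replicate 1 and from 257 to 45.5 CPM in BPI. Marker levels moved with the state in T-like cells too: the 10 monocyte/macrophage markers summed to 912 to 3184 CPM in non-cycling and 566 to 2395 CPM in cycling cells, higher in non-cycling cells in 5 of 5 libraries. The 8 T markers were higher there in 4 of 5 (4529 to 6234 CPM against 3763 to 5206 CPM). Their part in the T-like changes was not tested. Cdkn1a rose by 0.81 ± 0.20 (edgeR adjusted p = 0.00286), though in 3 of 5 libraries, and without BPI the value was 0.50 (edgeR adjusted p = 0.0694). With DESeq2 it was 0.73 (adjusted p = 0.0674), and without the library block 0.85 (edgeR adjusted p = 0.230). Cdk6 (-0.04 ± 0.13), Mdm2 (0.14 ± 0.16), Trp53 (0.26 ± 0.15) and Rb1 (0.33 ± 0.19) were tested and not called, and Cdkn2a, Cdkn2b and Ccnd1 were too low to be tested. In these cells, where 17.5% of genes were higher and 17.3% lower, 27 of 27 E2F targets tested were higher, led by Ccna2 (4.90), and 14 of 17 RB pathway components were higher, while 2 fell, Ccnd3, the third D cyclin, by 1.27 and the inhibitor Cdkn1b by 0.49. Of 15 p53 targets tested 3 were higher and 3 lower, with a median of -0.09 (-0.02 over all genes), and of 8 p53 regulators 2 were higher and 1 lower.

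The change of Cdk4 was larger in T-like than in tumour-like cells. In the 5 shared libraries the difference between the classes (T-like minus tumour-like) was 1.08 ± 0.16 on the log2 scale (edgeR adjusted p = 0.000330). Cdk4 was the 1 member called of 7 that passed the filter on low counts within each class. That count is near the share of all genes, since 14.6% of 6532 genes were called. For Ccnd2 it was -0.35 ± 0.37 (edgeR adjusted p = 0.576), and for Cdkn1a 0.48 ± 0.27 (edgeR adjusted p = 0.257), so no difference between the classes was shown for these 2 genes. This comparison was added after the values of both classes were seen.

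Cycling myeloid cells of the host are described without a test. There were 5 libraries with 20 cells in each state for monocyte/macrophage-like cells and 4 for microglia-like cells. Cdk4 was higher in cycling cells in 5 of 5 and 4 of 4 of them, at 80.5 to 146 CPM against 31.9 to 70.1 CPM and at 114 to 155 CPM against 46.2 to 71.5 CPM. Ccnd2 was lower in cycling microglia-like cells in 4 of 4 libraries and in 3 of 5 for monocyte/macrophage-like cells. Cdkn1a was lower in 4 of 5 libraries for monocyte/macrophage-like cells and higher in 4 of 4 for microglia-like cells. Mdm2 had the same pair of directions, in 5 of 5 and 4 of 4 libraries, and Rb1 was lower in cycling cells in 5 of 5 and 4 of 4. Marker levels moved with the state in the same cells. The 10 monocyte/macrophage markers were lower in cycling monocyte/macrophage-like cells in 5 of 5 libraries (8938 to 10372 CPM against 12171 to 19529 CPM), and the 8 microglia markers in cycling microglia-like cells in 4 of 4 (3555 to 6830 CPM against 6068 to 12461 CPM). In cycling microglia-like cells the monocyte/macrophage markers were higher in 4 of 4 (254 to 1609 CPM against 82.2 to 1373 CPM). In cycling monocyte/macrophage-like cells the microglia markers were higher in 3 of 5. The 11 tumour markers other than Cd9 were higher in cycling cells in 5 of 5 and 4 of 4 libraries, at 83.1 to 310.1 CPM against 22.1 to 69.2 CPM and at 78.1 to 199 CPM against 32.2 to 45.9 CPM, where tumour-like cells had 754 to 1778 CPM of these and 227 to 461 CPM of Cdk4. The part of these marker shifts in the differences of the members, and in those of Cdkn2a, was not tested.

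Cdkn2a was higher in the cycling cells of each host class examined, on few molecules. In T-like cells it had 1.83 to 4.37 CPM in non-cycling and 4.30 to 18.8 CPM in cycling cells (24 and 66 UMIs, 5 of 5 libraries). The values for monocyte/macrophage-like cells were 1.50 to 3.33 CPM and 4.97 to 46.1 CPM (46 and 70 UMIs, 5 of 5 libraries), and in microglia-like cells 3.37 to 10.9 CPM and 13.5 to 55.3 CPM (59 and 149 UMIs, 4 of 4 libraries). Cycling cells were deeper here too, with medians of 9256 to 32843 UMIs against 4544 to 9824 in monocyte/macrophage-like cells. In T-like cells the 11 tumour markers other than Cd9 summed to 23.6 to 53.2 CPM in cycling and 24.8 to 67.1 CPM in non-cycling cells. They were higher in cycling cells in 3 of 5 libraries. The part of free RNA or of remaining doublets in these Cdkn2a values was not tested.

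**Figure D4:**
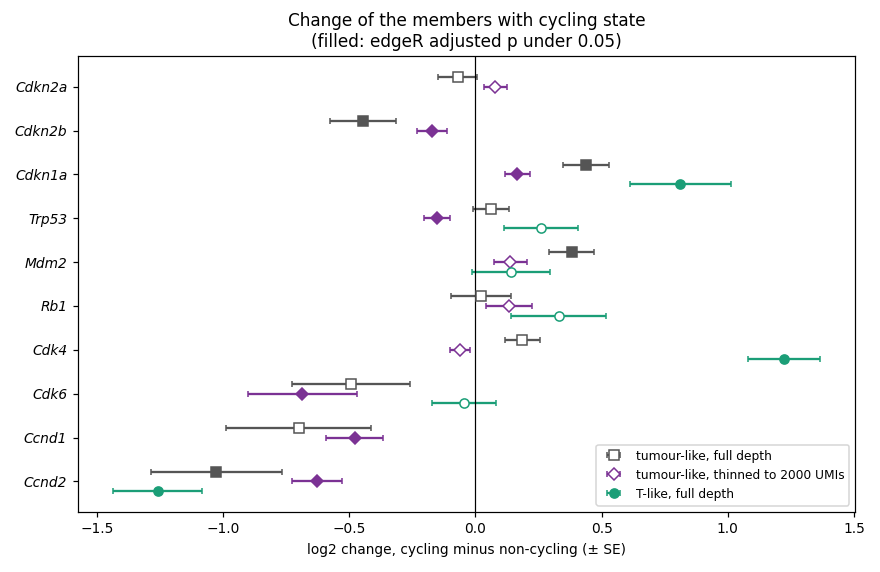
The log2 change of each member from non-cycling to cycling cells (± SE) in tumour-like cells at full depth, in tumour-like cells thinned to 2000 UMIs and in T-like cells; filled symbols have an edgeR adjusted p under 0.05. Ccnd2 lies below 0 in all 3 fits and Cdkn1a above 0, while Cdk4, of these 3 fits, is called in T-like cells.

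Treatment was examined in the same summed counts. In tumour-like cells, 0 of 10 members were called for BP, BPI or CD40 against IgG, where 0% of 20208 genes were called (404, 203 and 20 genes at an unadjusted p under 0.05, and 61, 10 and 0 genes called by DESeq2). BPI, CD40 and UT are 1 library each, and their spread was taken from the other groups; the contrasts also share the IgG libraries. The member changes ran from 0.06 to 1.22 for BP, -1.89 to 0.99 for BPI and -0.99 to 1.57 for CD40 on the log2 scale. Ccnd2 was at an end of each range, with 1.22 ± 1.89 for BP, which was -2.76 without BP replicate 1 and 4.83 without IgG replicate 2. Ccnd1 changed by 0.55 ± 0.79 for BP and by -0.76 without BP replicate 1. Between the BP and IgG libraries 2 of 10 members did not overlap, against 21.1% of 11099 genes with at least 5 CPM in either group. These were Cdkn1a (422 and 510.1 CPM for BP, 281 and 357 CPM for IgG; change 0.56 ± 0.30, edgeR adjusted p = 0.9999) and Cdkn2b (92.0 and 103 CPM for BP, 87.7 and 77.7 CPM for IgG).

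UT against IgG called 0% of 19995 genes in edgeR (2451 at an unadjusted p under 0.05, and 802 by DESeq2). Of the members, Cdk4 (0.90 ± 0.27, edgeR adjusted p = 0.379) and Trp53 (0.84 ± 0.28, edgeR adjusted p = 0.387) were the 2 with an unadjusted p under 0.05. In both the UT value was above every other library.

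In host classes, BP against IgG called no member either. In monocyte/macrophage-like cells 0% of 11817 genes were called (915 at an unadjusted p under 0.05, 116 by DESeq2), and the class was made of different clusters in different libraries: cluster 9 was 98.5% UT, cluster 12 was 97.9% BP replicate 1 and cluster 16 was 50.8% BPI. There Mdm2 was at 100.4 and 192 CPM in the BP libraries and 94.9 and 58.5 CPM in the IgG libraries, a change of 1.09 ± 0.51 (edgeR adjusted p = 0.665), and 0.37 without BP replicate 2. Cdkn1a changed by 0.72 ± 0.85 and by -0.37 without BP replicate 2. Of the members 4 of 10 did not overlap between the BP and IgG libraries, against 36.5% of 10374 genes. In microglia-like cells it was 4 of 10 against 34.3% of 11041 genes. There 0% of 12330 genes were called (571 at an unadjusted p under 0.05, 45 by DESeq2), and Cdk6 had the largest member change (-0.78 ± 0.36, edgeR adjusted p = 0.9999).

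In T-like cells 0.0668% of 8977 genes were called, and 3 of 10 members did not overlap between the BP and IgG libraries, against 39.1% of 10374 genes. Cdkn1a was at 98.6 and 55.7 CPM in the BP libraries and at 0 and 18.3 CPM in the IgG libraries, of which replicate 1 held only 40 T-like cells. Its change of 2.51 ± 0.73 missed the threshold (edgeR adjusted p = 0.286). It passed with the library set defined above as a term (edgeR adjusted p = 0.0174) or without the filter on low counts (edgeR adjusted p = 0.0125). It ranged from 1.82 to 2.71 with any 1 library but IgG replicate 2 left out. Without IgG replicate 2 the remaining IgG library held 0 UMIs of Cdkn1a, so that the fitted 10.8 measures no fold. Cycling cells made up 28.5% and 12.4% of T-like cells in the BP libraries and 10.0% and 0% in the IgG libraries. The part of this in the T-like changes was not tested. Cdk6 was at 539 and 117 CPM in the BP libraries and 112 and 59.4 CPM in the IgG libraries, a change of 1.72 ± 0.56 (edgeR adjusted p = 0.400; 0.00498 without the filter). It was 0.53 (edgeR adjusted p = 0.998) without BP replicate 1 and 2.36 (edgeR adjusted p = 0.647) without BP replicate 2.

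For each member the 2 genes with the most similar levels were found over 55 sums of a class in a library, from 15 classes, among 14186 genes. Pearson's r of log2(CPM + 5) is a description here, since sums of 1 library share its depth and free RNA and most of the spread lies between classes. The closest were Ran (0.92) and Ranbp1 (0.92) to Cdk4, Shox2 (0.90) and Aunip (0.90) to Cdkn2a, Arhgdib (0.85) and Aim2 (0.84) to Cdk6, and Nob1 (0.84) and Eef1g (0.83) to Trp53. Mdm2 had the weakest likeness, to Cstb (0.61) and Mvp (0.59). For the other members the values were 0.82 and 0.82 for Ccnd1 (BC028528 and Fcgrt), 0.81 and 0.79 for Cdkn2b (Ufsp1 and Plvap), 0.79 and 0.78 for Cdkn1a (Eif4ebp1 and Tubb6), 0.79 and 0.78 for Ccnd2 (Itgb7 and Slc9a3r1) and 0.74 and 0.72 for Rb1 (Sh3kbp1 and Arid1a).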

How the data were processed

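The matrices deposited by the authors hold whole-number UMI counts for each gene in every listed barcode; per the file headers they were made with Cell Ranger 4, while the submitters' processing notes name Cell Ranger 7.0.1 and the build mm10. Depth was 68997476 to 186793886 UMIs per library, and exact 95% Poisson intervals reflect counting error alone. Kept barcodes had 1000 or more UMIs, 500 or more genes and no more than 15% mitochondrial UMIs, and the highest Scrublet scores (0.8% per 1000 cells) were removed. Clustering used 1998 variable genes without the members, 30 principal components and Leiden at resolution 1 (scanpy 1.11.5, igraph 0.11.9). Clusters were named from 19 marker lists when at least 3 markers were raised (20 CPM and 4 times the lower-quartile cluster plus 5 CPM); this rule was set after seeing the data. The members, lists and comparisons were chosen with earlier results of these data known. Free RNA was taken from barcodes of 10 to 100 UMIs. Its share in a host class was estimated from tumour marker UMIs in that class, all counted as free RNA. Remaining doublets or the class's own expression of these markers would raise the estimate.

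Counts were summed per library and class or state with at least 20 cells and tested with edgeR 4.0.16 (R 4.3.3; TMM, filterByExpr, quasi-likelihood, Benjamini-Hochberg, adjusted p under 0.05); DESeq2 1.42.0 was an alternative. IgG, BP, BPI and CD40 shared 1 fit, and UT against IgG used all 7 libraries. The difference in cycling change between classes used genes that passed the filter within each class. The test was also run on counts simulated from its own fitted model, which cannot show the effect of free RNA, remaining doublets or the naming of cells. The 10 members were named whatever their values, and other genes were the 3 largest rises and falls past the test per list, genes within 1 Mb of Cdkn2a and the 2 closest in pattern. The alternatives were other scaling and filters, other cycling thresholds, thinning, and each library left out.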

Additional observations from a re-analysis of the deposited data

Results flagged for a closer look

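The cycling change of Cdk4 differed between T-like and tumour-like cells in a test of the difference itself over 5 libraries, chosen after the values were seen. Differences were not rare in that test, where 14.6% of 6532 genes were called. The difference for Cdk4 was 1.08 ± 0.16 in log2 units (adjusted p = 0.000330 in edgeR), larger in T-like cells. It ranged from 0.89 to 1.12 with each library left out, and was 0.96 (edgeR adjusted p = 0.00216) with the filter on low counts set over both classes together. That filter also admits Cdkn2a through its level in tumour-like cells, but with too few UMIs in T-like cells for a test there, so no difference is read for it. Cycling cells were deeper than non-cycling ones in both classes, and the part of depth in the difference was not tested.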

How the results depend on the processing

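Of the member values under each alternative, 360 kept direction and side of the threshold, 21 reversed, 18 lost a call, 8 gained one and 8 moved by over 1 SD. Cycling against non-cycling tumour-like cells called 278 genes with no library block and 1164 to 1975 with each library left out (1164 without IgG replicate 2, 1421 without CD40). Reversed there were Cdkn2a (0.021 without the filter, 0.079 thinned to 2000 and 0.062 to 5000 UMIs), Cdk4 (-0.062 thinned to 2000), Trp53 (-0.033 with DESeq2, -0.043 with its size factors, -0.15 thinned) and Rb1 (-0.086, -0.075 and, leaving out libraries, -0.038 to 0.064). T-like cycling calls were 1489 with DESeq2, 453 with no block and 1435 to 2611 leaving out libraries; Cdk6 was 0.0090 with no block and -0.12 to 0.036. The T-like minus tumour-like difference had 338 to 1558 calls leaving out libraries (1558 without CD40, 338 without BP replicate 1, 359 without BPI, 436 without UT). BP against IgG called 61 genes with DESeq2 and 0 leaving out libraries in tumour-like cells; 116, 511 (library set as a term), 390 (no filter) and 0 to 204 in monocyte/macrophage-like cells; 45, 311 (no filter) and 0 to 407 in microglia-like cells; and 13, 11 (DESeq2 size factors), 113 (set), 110 (no filter) and 0 to 92 in T-like cells. DESeq2 called 10 genes for BPI and 802 for UT. Non-cycling tumour-like cells alone gave -0.12 for Ccnd2 and -0.63 for Ccnd1 in BP against IgG. With each library left out, Ccnd2 ran from -2.76 to 4.83 (BP) and -2.83 to 1.75 (BPI), Ccnd1 from -0.76 to 1.37 (BP), and Cdkn1a in monocyte/macrophage-like cells from -0.37 to 2.51. The cause of these changes was not tested. With the replicate block BP against IgG called 0, 0, 0 and 6 genes in tumour-like, monocyte/macrophage-like, microglia-like and T-like cells, no member among them; the correlation of same-numbered libraries was -0.71, -0.22, 0.01 and -0.09. The crossed pairing is the library set term, which called 0, 511, 0 and 113. The T-like fits at 4 or more UMIs and thinned to 2000 were not run, since 3 and 2 libraries kept 20 cells in each state and the test was set to need 4. Low counts limit Cdkn2a and Cdkn2b in host cells, and Cdk6 in non-cycling and thinned tumour-like cells. Free RNA limits the level of Cdk6 in tumour-like cells, since empty droplets held more of it in each library.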
